A study of Mus musculus with 32 samples.

Results

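The Zfp genes described here are mouse genes named Zfp and a number, most of which encode zinc finger proteins, measured by RNA-seq in E14 mouse embryonic stem cells. Of 17440 genes listed in at least 1 of 5 tables of normalised counts, 358 symbols have that form and 342 of these are in every table. The 277 members are those with a mean normalised count of at least 50 over all libraries of each of the 5 tables, leaving out Zfp42 and Zfp352. Zfp101 and Zfp583 were included whatever their level, because of their values after RAD21 degradation, and both also passed the floor. The level and, for Zfp101 and Zfp583, the RAD21 contrasts therefore chose the members and are given as a description. Just inside the floor stood Zfp947, at 50.2 in its lowest table, and just outside stood Zfp995, at 49.9.

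A C2H2 zinc finger is a short fold held by zinc that reads a few bases of DNA, and a row of them gives a protein its binding sequence. Many mouse Zfp proteins also carry a KRAB box (Krüppel-associated box), which binds TRIM28, and TRIM28 brings SETDB1 and HP1 proteins to place repressive chromatin. In embryonic stem cells this pathway is known for silencing retrotransposons and for keeping DNA methylation at imprinted regions. CTCF, itself a zinc finger protein, stops the loop-extruding cohesin ring at its sites. RAD21 is the kleisin subunit of cohesin, and CHD4 is the ATPase of the NuRD complex, a chromatin remodeller and deacetylase.

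The 32 libraries form 16 groups of 2, all from E14 lines grown on gelatin in medium with LIF and inhibitors of MEK and GSK3. CTCF AID cells, in which CTCF carries an auxin-inducible degron, were untreated or given 500 µM indole-3-acetic acid (IAA) for 12 or 24 h. RAD21 AID cells were untreated or given 1 µM 5-Ph-IAA for 12 or 24 h. CTCF AID cells labelled as in serum were untreated or given IAA for 12 h, although the growth protocol in the labels names only serum-free medium. CTCF AID cells with a control hairpin or a hairpin against Chd4 carry no label of IAA. CTCF AID cells overexpressing a control, wild-type CTCF or a mutated CTCF were sequenced with and without IAA. The labels do not name the mutation, the number of clones or whether the 2 libraries of a group came from separate cultures, so the p-values below measure only the spread between these libraries. Titles and treatment labels conflict for 4 of the 12 overexpression libraries. The treatment label gives 12 h of IAA to both libraries whose title names mutated CTCF and no IAA, and gives no IAA to both whose title names wild-type CTCF and IAA. Groups here follow the titles, and results that rest on these libraries are worded as "titled".

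Total normalised counts ran from 15364584 to 19642332 per library. The 6 defining markers of pluripotent cells (Pou5f1, Sox2, Nanog, Esrrb, Klf4 and Tfcp2l1) summed to between 32849 and 85962 per group, lowest in serum. Chd4 itself read 9923 and 9526 with the control hairpin and 3379 and 3729 with the Chd4 hairpin, a log2 difference of -1.45. Degradation acts on the protein, so Ctcf and Rad21 counts do not check it. Ctcf counts were 9275 to 9712 in the libraries titled wild-type or mutated CTCF without IAA, against 4134 and 4332 in the overexpression control. In these bulk libraries fewer cells of a type and less RNA per cell cannot be told apart.

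The members are of 2 kinds. By a profile search of the annotated proteins, 173 members hold a KRAB box and 104 do not, and 276 are protein coding, the exception being Zfp640, a transcribed pseudogene. A strict pattern of the KRAB core, fixed beforehand, found a box in only 61 members. The profile was built from the members' own matches to that core, and KRAB members below are by the profile. The median number of C2H2 fingers was 11, with 12 in KRAB members and 7 in the others, and the highest count was 34, in Zfp142 and Zfp462. Mean levels ran from 72.9 to 11041 normalised counts with a median of 369. Many members lie side by side: 133 fall into 14 runs of at least 5 members whose starts are less than 1000000 bases apart. Near-identical copies are common, and 53 members share over 10% of the 50-base words of their transcripts with another gene, so that reads of these members may be split between copies. Exons of 62 members are overlapped by a gene on the opposite strand, and the counting is not stated to have used strand.

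A member is called below where limma on log2(value + 1) gave an adjusted p under 0.05, with the Benjamini-Hochberg adjustment taken over every gene of the table whose mean reached 10. Differences are on the log2(value + 1) scale. Across the 17 comparisons, 42 members were called in none, and 109 were called in none other than the Chd4 knockdown.

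After 12 h without CTCF a smaller share of the members than of all genes was called. More of those called were higher than lower, and a group of neighbours on chromosome 6 fell. In the CTCF AID cells 33 of 277 members (11.9%) were called at 12 h, against 17.8% of all genes tested. Of the 277, 23 were called higher and 10 lower, beside 9.39% and 8.4% of all genes. The share higher was not above that of all genes, and the share lower was below it. The median difference over the members was 0.08, beside 0.001 over all genes, and 175 members were above 0. KRAB members (13 higher, 3 lower, median 0.09) and the others (10 higher, 7 lower, median 0.07) gave like medians. Without the first or second untreated library 11 or 16 members were called, and without the first or second 12 h library 10 or 14.

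At 24 h, 43 members (15.5%) were called against 22.5% of all genes, with 31 higher and 12 lower (11.7% and 10.8% of all genes), and 188 members were above 0. Of these, 27 were also called at 12 h, all with the same sign, and both comparisons use the same untreated libraries. Without the first untreated library 18 members were called, without the second 23, and without either 24 h library 32 or 43. Markers moved beside these counts: T, of mesoderm, had a mean of 7.9 untreated, 68.4 at 12 h and 138 at 24 h, called higher at both times. Nanog went from 15722 to 11885 and 11808, called lower at both, while 1 of the 6 pluripotency markers was called higher at each time. Of 3 tested 2-cell-like markers 1 was lower at each time, Sox1 of the neural list was lower at 24 h, and no primitive endoderm or trophoblast marker was called. The part of these markers in the members' values was not tested. Between 12 and 24 h no member was called by limma, 15 had an unadjusted p under 0.05, and 0.146% of all genes were called, 0.0876% higher and 0.0584% lower.

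**Figure D1:**
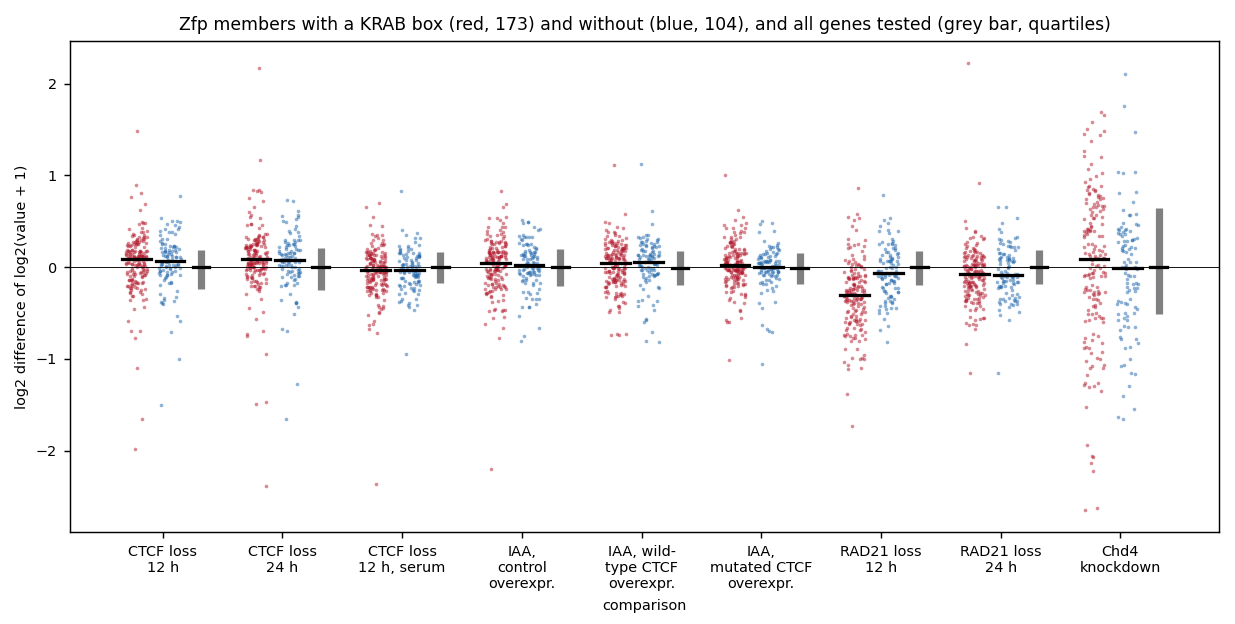
Log2 difference of each member in 9 comparisons (points), for the 173 members with a KRAB box in red and the 104 without in blue, with black lines at the medians and a grey bar from the first to the third quartile of all genes tested. KRAB members sit lowest against all genes at 12 h of RAD21 loss (median -0.30), and the widest spread is in the Chd4 knockdown.

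The 3 largest called falls at 12 h and at 24 h of CTCF loss were in 1 stretch of chromosome 6, between 47835661 and 48623227 (mm10), which holds Zfp398, Zfp282, Zfp212, Zfp956, Zfp777, Zfp746 and Zfp775. Zfp940 and Zfp691, elsewhere in the genome, had differences of -1.65 and -1.50 at 12 h that were not called (adjusted p = 0.25 and 0.27). Of the 7 members of the stretch 4 were called lower at 12 h (median of the 7, -0.77) and 5 at 24 h (median -0.95), with none higher. The promoter windows of the first 6 are printed here because these neighbours include the largest called falls after CTCF loss and because the windows can be read for letters of the CTCF core. The windows are from RefSeq on GRCm38.p6, run from 250 bases before to 50 after the annotated start, and are written 5′ to 3′ on the gene's strand. Capitals mark matches, on either strand, to the core letters of the CTCF motif: CC, any 3 bases, AG, any 2 bases and GGC. The windows are chr6:47835411-47835710 for Zfp398, chr6:47877305-47877604 for Zfp282, chr6:47920318-47920617 for Zfp212 and chr6:47953140-47953439 for Zfp956, all on the plus strand, and chr6:48047745-48048044 for Zfp777 and chr6:48086544-48086843 for Zfp746 on the minus strand.
Zfp398: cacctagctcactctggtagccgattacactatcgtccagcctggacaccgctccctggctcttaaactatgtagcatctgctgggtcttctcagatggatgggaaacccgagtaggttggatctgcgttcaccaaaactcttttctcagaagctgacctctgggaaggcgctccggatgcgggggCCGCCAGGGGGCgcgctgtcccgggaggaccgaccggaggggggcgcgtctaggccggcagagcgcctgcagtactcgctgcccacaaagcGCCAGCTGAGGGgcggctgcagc
Zfp282: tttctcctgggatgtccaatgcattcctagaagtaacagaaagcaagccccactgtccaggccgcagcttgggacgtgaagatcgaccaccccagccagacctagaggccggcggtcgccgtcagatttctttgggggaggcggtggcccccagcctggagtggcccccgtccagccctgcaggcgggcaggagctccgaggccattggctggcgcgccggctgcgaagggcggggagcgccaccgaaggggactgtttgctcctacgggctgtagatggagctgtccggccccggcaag
Zfp212: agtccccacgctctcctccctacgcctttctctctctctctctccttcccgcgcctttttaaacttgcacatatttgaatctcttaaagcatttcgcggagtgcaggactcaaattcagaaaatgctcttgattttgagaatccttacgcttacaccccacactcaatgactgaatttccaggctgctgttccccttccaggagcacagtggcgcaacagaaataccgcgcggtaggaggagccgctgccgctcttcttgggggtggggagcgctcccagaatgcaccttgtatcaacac
Zfp956: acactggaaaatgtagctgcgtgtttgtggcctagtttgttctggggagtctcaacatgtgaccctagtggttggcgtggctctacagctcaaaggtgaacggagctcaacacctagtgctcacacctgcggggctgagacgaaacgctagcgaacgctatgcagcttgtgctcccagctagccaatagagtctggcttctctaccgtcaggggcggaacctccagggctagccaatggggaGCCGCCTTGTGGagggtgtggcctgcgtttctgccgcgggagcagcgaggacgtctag
Zfp777: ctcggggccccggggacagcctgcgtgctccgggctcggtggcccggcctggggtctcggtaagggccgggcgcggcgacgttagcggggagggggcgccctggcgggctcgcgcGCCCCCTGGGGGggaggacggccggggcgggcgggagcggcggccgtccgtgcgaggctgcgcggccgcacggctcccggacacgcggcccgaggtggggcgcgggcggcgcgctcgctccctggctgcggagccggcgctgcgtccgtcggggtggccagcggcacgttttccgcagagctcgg
Zfp746: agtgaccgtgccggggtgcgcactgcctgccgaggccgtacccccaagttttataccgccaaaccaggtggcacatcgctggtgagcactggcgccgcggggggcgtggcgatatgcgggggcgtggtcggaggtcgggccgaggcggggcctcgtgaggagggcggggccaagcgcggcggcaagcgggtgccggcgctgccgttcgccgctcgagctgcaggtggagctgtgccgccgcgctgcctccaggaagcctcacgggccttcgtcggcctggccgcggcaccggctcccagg

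Zfp398 holds 2 matches, the first from 64 to 53 bases before the start. Zfp956 and Zfp777 hold 1 match each, and Zfp282, Zfp212 and Zfp746 hold none in this window. The 12-letter pattern is found in 8.61% of all 32851 RefSeq windows and in 11.6% of the 277 windows of the 227 members that could be matched. Counted by gene, 29 of 227 members hold it (12.8%), beside 9.84% of all 27025 genes. Of the members called lower at 12 h of CTCF loss 3 of 8 with a window hold it, of those called higher 1 of 13, and of those not called 25 of 206. At 24 h the same counts were 4 of 11, 1 of 22 and 24 of 194. In serum they were 2 of 16, 0 of 7 and 27 of 204, so that there the lower members held it about as often as those not called. In the overexpression control with IAA they were 4 of 16, 2 of 30 and 23 of 181. At 12 h of RAD21 loss they were 6 of 50, 1 of 5 and 22 of 172. These shares describe the windows and were not tested, and a match is not a site.

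Zfp398, a KRAB zinc finger gene also known as Zer6, read 253 and 237 normalised counts in untreated CTCF AID cells, 52.1 and 71.8 at 12 h, and 49.6 and 43.1 at 24 h. Every treated library was below every untreated one. The log2 difference was -1.98 (SE 0.22, adjusted p = 0.0016) at 12 h and -2.38 (adjusted p = 0.00055) at 24 h. In serum it went from 143 and 131 to 23.8 and 28.0, a difference of -2.36 (adjusted p = 0.00042). In the overexpression control it went from 249 and 265 to 52.1 and 58.6 with IAA, a difference of -2.20 (adjusted p = 1.4e-06). No library left out ended any of these 4 calls. In RAD21 AID cells Zfp398 read 178 and 287 untreated and 270 and 257 at 12 h, so that the groups overlapped (log2 difference 0.22, adjusted p = 0.54).

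Zfp212, a KRAB gene of the same stretch, fell by less. It read 408 and 404 untreated, 228 and 246 at 12 h, and 243 and 247 at 24 h in CTCF AID cells. Its differences were -0.77 at 12 h (adjusted p = 0.0037), -0.73 at 24 h, -0.67 in serum and -0.67 in the overexpression control, and no library left out ended any of these calls.

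Zfp282, whose human counterpart was described as a repressor at a retroviral long terminal repeat, read 316 and 309 untreated, 128 and 165 at 12 h, and 94.6 and 130 at 24 h. All treated libraries were below both untreated ones. The difference was -1.10 at 12 h (adjusted p = 0.011, lost without either untreated library or the first 12 h library, with an adjusted p of up to 0.071) and -1.49 at 24 h (adjusted p = 0.0028, kept without each library). It was -0.72 in serum (up to 0.13 with 1 library left out) and -0.62 in the overexpression control (up to 0.063).

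Zfp956 and Zfp777 were lower with weaker support. Zfp956 read 147 and 126 untreated, 63.5 and 71.1 at 12 h, and 45.0 and 68.4 at 24 h. Its difference was -1.0 at 12 h (adjusted p = 0.034, over 0.05 without each of the 4 libraries, 0.10 to 0.17) and -1.28 at 24 h (adjusted p = 0.012, 0.078 without the first untreated library). It shares 6.5% of its words with Zfp783, which overlaps it on the same strand. Zfp777 read 490 and 318 untreated and 194 and 215 at 24 h, a difference of -0.95 (adjusted p = 0.018, at most 0.076, lost without the first untreated or the first 24 h library). At 12 h its difference was -0.69 (adjusted p = 0.062), in serum -0.58 (adjusted p = 0.012) and in the overexpression control -0.55 (adjusted p = 0.024). Zfp746, whose human counterpart PARIS represses a mitochondrial coactivator gene, had -0.10 at 12 h (adjusted p = 0.69), and Zfp775 had 0.11 (adjusted p = 0.68).

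Genes beside the stretch that are not members had mixed values. Zfp786, next to Zfp398 and below the floor for members, was called lower at 24 h (-1.38), in serum (-1.78) and in the overexpression control (-1.24). Cul1, on the far side of it, rose by 0.39 at 12 h. Ezh2 and Pdia4, which lie between these, had -0.08 and 0.10 at 12 h and were not called.

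**Figure D2:**
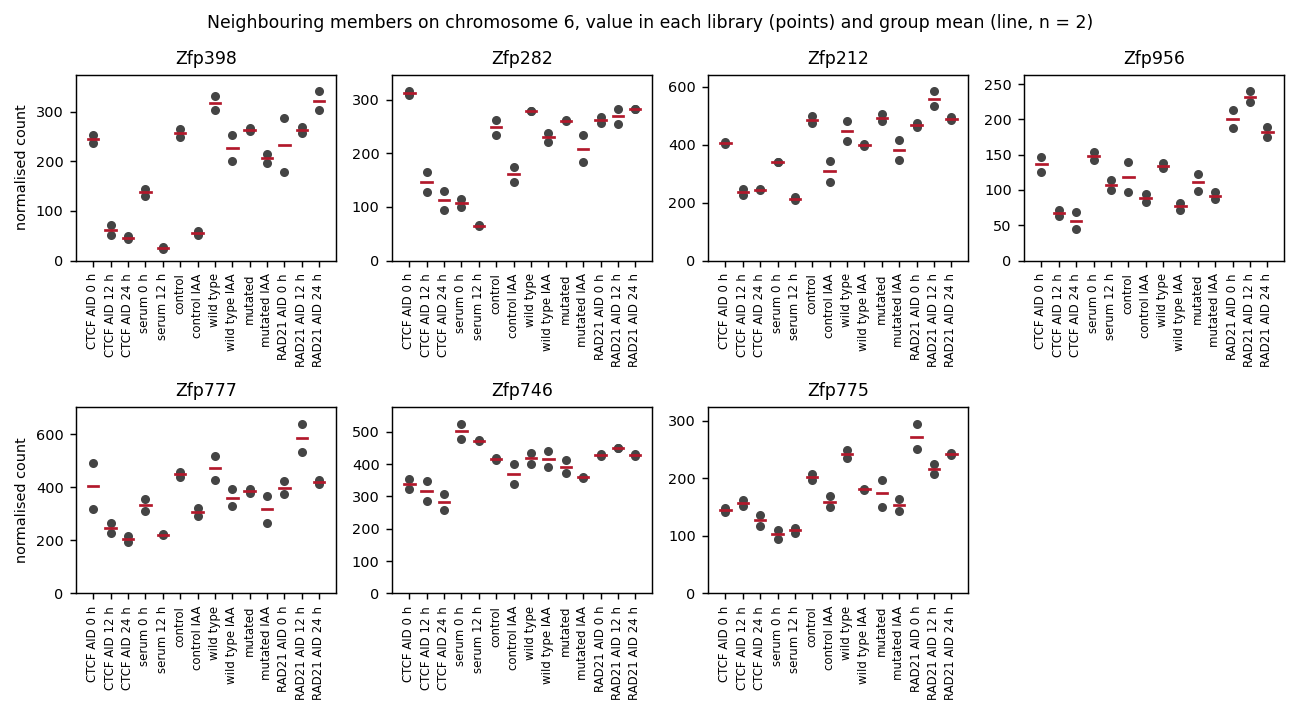
Normalised counts of the 7 neighbouring members of chromosome 6 in each library (points) with the mean of the 2 libraries of each group (line), on linear axes from 0. Zfp398, Zfp282 and Zfp212 are lower after IAA in the CTCF AID, serum and overexpression control libraries, and were not called lower in the RAD21 AID libraries.

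Among the members that rose after CTCF loss, Zfp57 had the largest called difference at 12 h. Zfp57 binds a methylated motif at imprinted regions and recruits TRIM28 there. It read 3487 and 3590 untreated, 6284 and 6952 at 12 h, and 6115 and 6414 at 24 h. No treated library overlapped an untreated one, and the differences were 0.90 (SE 0.06, adjusted p = 0.00019) and 0.82 (adjusted p = 0.00018). One of its 3 RefSeq windows, chr17:37002275-37002574 on the plus strand, holds the CTCF letters from 57 to 46 bases before the start and is printed to set beside the promoters of genes that fell.
Zfp57: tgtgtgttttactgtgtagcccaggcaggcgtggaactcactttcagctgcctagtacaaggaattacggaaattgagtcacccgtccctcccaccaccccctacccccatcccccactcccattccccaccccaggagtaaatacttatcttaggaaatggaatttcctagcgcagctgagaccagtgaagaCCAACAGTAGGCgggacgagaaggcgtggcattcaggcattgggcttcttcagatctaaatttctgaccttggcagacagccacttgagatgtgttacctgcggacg

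Zfp57 also rose in the overexpression control, where it read 4779 and 4803 without and 6407 and 6577 with IAA (0.44, adjusted p = 1.3e-06). In serum it read 6206 and 5910 untreated and 6438 and 6548 at 12 h, values that do not overlap and were not called (0.10, adjusted p = 0.065). The difference of Zfp57 was -0.06 (adjusted p = 0.25) in RAD21 AID cells at 12 h and -0.09 with the Chd4 hairpin (adjusted p = 0.11).

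Zfp532, a partner of the chromatin reader ZMYND8, read 537 and 604 untreated and 1053 and 909 at 12 h of CTCF loss (0.78, adjusted p = 0.0027). Zfp667 read 219 and 256 untreated and 402 and 450 at 24 h (0.84, adjusted p = 0.0038), and at 12 h its difference was 0.69 (adjusted p = 0.01, up to 0.070 with 1 library left out). Zfp819 had 0.76 at 12 h and 0.84 at 24 h, with an adjusted p of up to 0.15 and 0.10 when 1 library was left out. Zfp382, a KRAB gene, read 45.3 and 52.6 untreated and 200 and 251 at 24 h. Its difference of 2.17 (SE 0.35, adjusted p = 0.0059) was the largest rise of the family at 24 h, while at 12 h its libraries read 101 and 46.5 and overlapped the untreated ones. Zfp28 had 0.84 at 24 h, from 135 and 141 to 326 and 187, and lost its call without either untreated library or the first 24 h library (adjusted p up to 0.17).

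Only 4 of 277 members were called in the same direction at 12 h, at 24 h, in serum and in the overexpression control: Zfp398, Zfp282 and Zfp212 lower and Zfp41 higher. Zfp41 read 525 and 554 untreated, 721 and 815 at 12 h, and 794 and 737 at 24 h. Its differences were 0.51, 0.50, 0.32 in serum and 0.41 in the overexpression control. A library left out raised its adjusted p to at most 0.070 at 12 h, 0.058 at 24 h and 0.14 in serum.

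In serum the members as a whole were not shifted up. Of 277 members 33 (11.9%) were called, 11 higher and 22 lower, against 17.0% of all genes (7.73% higher and 9.25% lower), with a median of -0.03. Without either 12 h library 8 or 9 members were called, and without the untreated ones 29 or 20. The chromosome 6 stretch had 4 of 7 members called lower (median -0.58). Beside Zfp398, the largest falls included Zfp750, known for epidermal differentiation, from 130 and 140 to 70.6 and 68.7 (-0.94, adjusted p = 0.007, 0.053 without the second 12 h library). Zfp809, a KRAB protein that silences murine leukaemia viruses, fell from 561 and 547 to 392 and 390.5 (-0.50, adjusted p = 0.0047). Rises were smaller and less firm: Zfp324 (0.70), Zfp595 (0.65), Zfp989 (0.54) and Zfp709 (0.45) each lost the call without at least 2 of the 4 libraries, with an adjusted p of up to 0.25, 0.15, 0.17 and 0.21. The pluripotency markers summed to 38968 untreated and 32849 at 12 h in serum (4 of 6 lower). T, the 1 mesoderm marker, went from 24.5 to 80.7 and Gata4 of primitive endoderm read 47.6 and 52.3 untreated and 77.0 and 103 at 12 h, both called higher, and the trophoblast, neural and 2-cell-like lists had none called. The part of these markers in the members' values was not tested. Serum and serum-free libraries are in separately normalised tables, so the difference between both media was not tested. Of the members called at 12 h in serum-free medium, 3 were higher and 4 lower in serum too, which is 27.3% of the 11 higher and 18.2% of the 22 lower in serum. These shares are a description, without the matching overlap over all genes.

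The overexpression control repeated the treatment in another derivative of the CTCF AID cells. With IAA 62 members (22.4%) were called, 43 higher and 19 lower, against 25.3% of all genes (12.8% and 12.5%), with a median of 0.04. Leaving out 1 library gave 32 to 40, and a fit of these 2 groups alone gave 39. Beside these counts the mean of T went from 91.2 to 44.3 and that of Nes from 740 to 1206, Pdgfra was higher, and of the pluripotency markers 1 was higher and 3 lower. The part of these markers was not tested. Of the 23 members higher at 12 h in the parental cells 11 were higher here (47.8%, and 25.6% of the 43), and of the 10 lower there 5 were lower here (50%, and 26.3% of the 19). The matching overlap over all genes is not given, so these shares are only a description. Beside Zfp398, Zfp2 fell from 261 and 318 to 192 and 153 (-0.74, adjusted p = 0.0025), Zfp459 from 417 and 459 to 239 and 276 (-0.77, 0.055 without the first IAA library) and Zfp750 from 112 and 96.3 to 52.5 and 65.8 (-0.81, up to 0.12 with 1 library left out). The largest called rise was in Zfp583, from 68.1 and 85.9 to 128 and 145 (0.83, adjusted p = 0.025, up to 0.14). Zfp946 (0.69), Zfp213 (0.65) and Zfp647 (0.54) followed, each with a call that some single library could end (adjusted p up to 0.19, 0.082 and 0.16).

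With wild-type CTCF overexpressed, the libraries titled with IAA had 51 members called (18.4%), 36 higher and 15 lower, against 21.4% of all genes (11.1% and 10.3%) and with a median of 0.05. Leaving out 1 library gave 24 to 34, and a fit of these 2 groups alone gave 31. Zfp398 read 303 and 332 without and 200 and 253 with IAA, a difference of -0.49 (adjusted p = 0.026). The test of the difference from the control's response called 3 members, against 1.41% of all genes (1.1% higher and 0.309% lower), and gave 1.70 for Zfp398 (SE 0.19, adjusted p = 0.001). Zfp57 read 4833 and 4899 without and 5378 and 5483 with IAA (0.16), and its response differed from the control's by -0.28 (SE 0.04, adjusted p = 0.0037). Zfp282 (-0.28, adjusted p = 0.18), Zfp212 (-0.16, adjusted p = 0.41) and Zfp777 (-0.39, adjusted p = 0.099) were not called in these libraries, while Zfp956 was (-0.80, adjusted p = 0.017, up to 0.10). For these 4 the test of the difference from the control's response was not called. Among the markers T was lower and Nes higher in the libraries titled with IAA. Of the pluripotency markers 2 were higher and 2 lower, and the part of the markers was not tested.

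Other members moved between the wild-type CTCF libraries titled without and with IAA. Zfp566 read 153 and 176 without and 315 and 401 with IAA (1.11, adjusted p = 0.0026). Against the control's response it differed by 0.95 (adjusted p = 0.17), which did not pass. It shares 15.6% of its words with Gm26920, which overlaps it. Zfp81 read 455 and 429 without and 661 and 658 with IAA (0.58, adjusted p = 0.00086), while the control read 492 and 517 without and 496 and 505 with IAA. The difference of both responses was 0.59 (SE 0.12, adjusted p = 0.039), and leaving out any of the 8 libraries raised it to between 0.07 and 0.13. Zfp640 rose in both, by 0.61 with wild-type CTCF and by 0.52 in the control, and Zfp213 was higher by 0.48 with wild-type CTCF (adjusted p up to 0.24 with 1 library left out). Zfp358 (-0.82), Zfp688 (-0.74) and Zfp750 (-0.71) were the other large falls, with an adjusted p of up to 0.063, 0.13 and 0.21 when 1 library was left out.

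With mutated CTCF, 28 members (10.1%) were called between the libraries titled with and without IAA, 16 higher and 12 lower, against 16.2% of all genes (8.31% and 7.92%). A single library left out gave 9 to 12. Among the markers T was lower, Nes and Pdgfra were higher, and of the pluripotency markers 2 were higher and 3 lower. The part of the markers was not tested. Zfp398 read 267 and 260 titled without and 215 and 197 with IAA (-0.35, adjusted p = 0.11), and its response differed from the control's by 1.84 (SE 0.19, adjusted p = 0.00043). It was 1 of 3 members for which that test was called, against 1.64% of all genes (1.05% higher and 0.581% lower). Zfp57 read 6266 and 6250 titled without IAA and 6291 and 6292 with it, and its response differed from the control's by -0.43 (SE 0.04, adjusted p = 0.00012). Zfp990, a KRAB gene of chromosome 4, read 7646 and 7484 titled without and 7691 and 7650 with IAA, where the control went from 6303 and 6268 to 7437 and 7536. Its response differed from the control's by -0.23 (SE 0.04, adjusted p = 0.0065). Zfp459 fell from 598 and 547 to 291 and 276 (-1.01, adjusted p = 0.0023) and Zfp692 from 242 and 222 to 152 and 134 (-0.70, adjusted p = 0.0035), as did Zfp750 (-1.06, 0.068 without the second IAA library). Zfp72 was also lower (-0.70, adjusted p up to 0.16 with 1 library left out). Zfp948 rose from 260 and 269 to 364 and 374 (0.48, adjusted p = 0.0048). Zfp612 (0.55), Zfp667 (0.43) and Zfp628 (0.40) were higher with less support (adjusted p up to 0.16, 0.20 and 0.22).

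Few members differed between the lines without IAA. Between wild-type CTCF and the control no member was called by limma, with 29 at an unadjusted p under 0.05 and 0.897% of all genes called (0.502% higher and 0.395% lower). Without the second control library 2 were called. Between the libraries titled mutated CTCF and the control 10 members were called, all higher, against 5.55% of all genes (3.31% higher and 2.24% lower), with 5 to 7 when 1 library was left out and 3 in a fit of these groups alone. Zfp57 was the largest (0.39, adjusted p = 2.7e-05), followed by Zfp267 (0.30, adjusted p up to 0.14 with 1 library left out). Zfp990 (0.27), Zfp600 (0.28), Zfp980 (0.19) and Zfp988 (0.18), neighbours on chromosome 4, were among the 10. In the libraries titled mutated CTCF without IAA, Zfp57 and Zfp990 therefore stood near the control with IAA. These are the libraries whose treatment label says 12 h of IAA. Zfp398 at 267 and 260 was near the control without IAA. It cannot tell title from label, because it was not called lower in the libraries of mutated CTCF with IAA either. Counts of Nes and Ctcf stood with the titles. Mean counts of Nes were 787 in the libraries titled mutated CTCF without IAA and 1145 in those titled wild-type CTCF with IAA, beside 731 and 740 in the other groups without IAA and 1206 and 1264 in the other groups with it. Ctcf read 11631 and 11077 in the libraries titled wild-type CTCF with IAA, near the 11758 and 11590 of mutated CTCF with IAA. Sox2 in the libraries titled wild-type CTCF with IAA stood with the label, at a mean of 7326. Its means were 7354, 7607 and 7801 in the groups titled without IAA, and 5865 and 6021 in the other groups with it.

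The libraries titled mutated CTCF without IAA carry a label of 12 h of IAA, so mutation and IAA cannot be told apart there. Between them and the libraries titled wild-type CTCF without IAA 15 members were called, 13 higher and 2 lower, against 6.23% of all genes (3.49% and 2.73%). Among the 13 were Zfp57 and 8 of the 16 chromosome 4 members described below. Fits without 1 library gave 7 to 9 and a fit of these groups alone 4. Zfp566, at 294 and 383 in the libraries titled mutated CTCF, was higher by 1.03 (adjusted p = 0.012, up to 0.098), and Zfp640 by 0.49 (adjusted p = 0.016, up to 0.10). The 2 lower were Zfp512 (-0.27, up to 0.15) and Zfp110 (-0.17, up to 0.17). Between the libraries titled with IAA, of which those of wild-type CTCF carry a label of no IAA, 1 member was called. It was Zfp57, higher with mutated CTCF by 0.21 (adjusted p = 0.0033), against 2.25% of all genes (1.08% higher and 1.18% lower). At an unadjusted p under 0.05 there were 26. Zfp57 and 8 of the 16 chromosome 4 members were also called higher with IAA in the control.

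**Figure D3:**
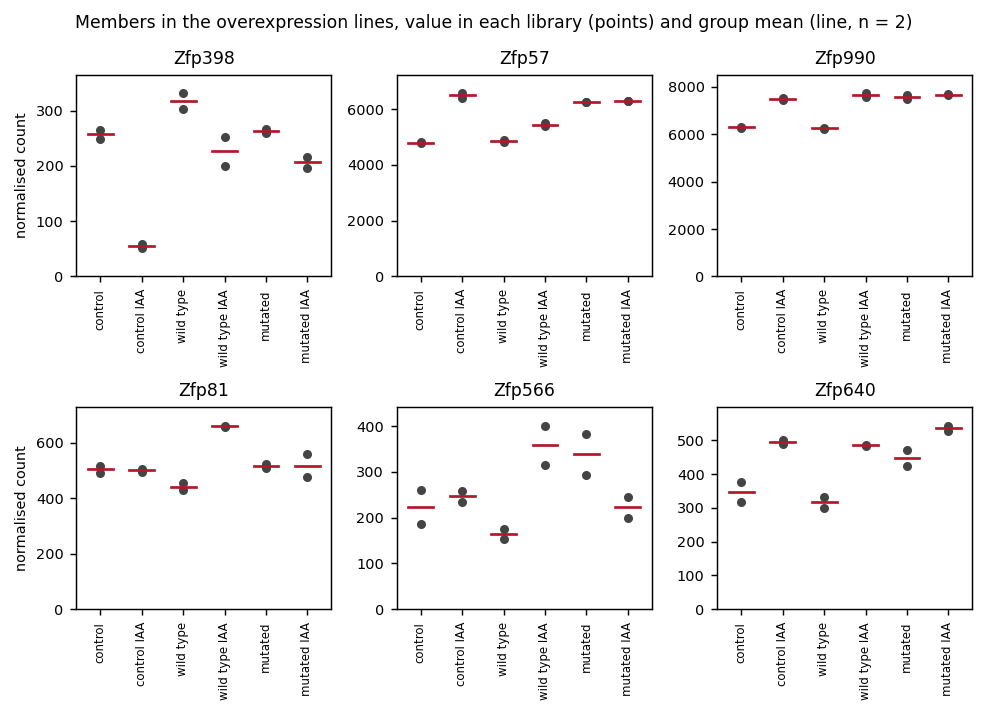
Normalised counts of 6 members in each library of the overexpression lines (points), with the mean of the 2 libraries (line), on linear axes from 0, in groups by title. Zfp398 reads 52.1 and 58.6 in the control with IAA and at least 197 in every other library, and Zfp57 and Zfp990 in the libraries titled mutated without IAA stand apart from the other libraries without IAA.

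After 12 h of RAD21 loss most called members were lower, and most of these carry a KRAB box. In the RAD21 AID cells 65 members (23.5%) were called, 60 lower and 5 higher, where 13.0% of all genes were called, 6.35% lower and 6.66% higher. The median over the members was -0.22, beside -0.001 over all genes, and 203 of 277 members were below 0. Of the 173 KRAB members 49 were called lower and 1 higher, with a median of -0.30, and of the 104 others 11 lower and 4 higher, with a median of -0.07. In each 12 h library the median of the KRAB members was below that of the others, at -0.26 and -0.33 against -0.07 and -0.02 relative to the untreated mean. No test of the difference between both kinds was made. Without the first or second untreated library 26 or 31 members were called, and without the first or second 12 h library 29 or 28, with 24 to 27 lower in each. The count includes Zfp583, which was chosen for this contrast. Of the 6 pluripotency markers 1 was higher and 3 lower, no marker of the other lists was called, T was not among the genes tested there, and the part of the markers was not tested.

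Lower calls made up a larger share of the KRAB members that share over 10% of their words than of the other KRAB members, and were found in both. How reads split between copies enter these calls was not tested. Among the 124 KRAB members that share at most 10% of their words with other genes, 26 were lower and 1 higher, and among the 157 KRAB members outside the chromosome 4 run described below, 35 were lower and 1 higher. Of 215 members without overlap on the opposite strand, 55 were lower and 3 higher. In other families of zinc finger genes 1 of 10 Zscan genes, 2 of 12 Zkscan genes, 3 of 35 Zbtb genes and 3 of 14 Klf genes were called, all lower, with medians of -0.13, -0.15, 0.002 and -0.20. The share of Klf genes called (21.4%) and their median were close to those of the Zfp members, and no difference between the families was tested.

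Zfp583 was chosen for its RAD21 values, which are given without a test: 122 and 154 untreated, 37.4 and 43.7 at 12 h, and 59.2 and 63.1 at 24 h. Zfp97 had the largest fall beside it that no single library ended, from 1539 and 1430 to 719 and 656 (-1.11, SE 0.08, adjusted p = 0.00068), and read 1243 and 1167 at 24 h. It shares 81.3% of its words with Zfp960, its neighbour. Zfp799 fell from 515 and 438 to 199 and 166 (-1.38, adjusted p = 0.018, 0.065 to 0.10 without each library in turn). Zfp120 fell from 268 and 408 to 162 and 147 (-1.09, adjusted p = 0.03), a call lost without the second untreated or either 12 h library (up to 0.13). Zfp445, which acts beside Zfp57 at imprinted regions, read 2404 and 2039 untreated and 1670 and 1619 at 12 h (-0.43, adjusted p = 0.017, up to 0.091 without either 12 h library).

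The 4 largest rises at 12 h were modest. Zfp777 went from 373 and 423 to 533 and 637 (0.55, adjusted p up to 0.13 with 1 library left out), opposite to its fall after CTCF loss. Zfp217, a corepressor that binds with LSD1 and CoREST, went from 1466 and 1722 to 2449 and 2161 (0.53, up to 0.074), and Zfp512 from 1254 and 1348 to 1575 and 1874 (0.40, up to 0.18). Zfp207, a spindle factor also known as BuGZ, rose from 3775 and 3792 to 4553 and 4567 (0.27, adjusted p = 0.0042), a call that no single library ended.

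At 24 h of RAD21 loss fewer members were called. In all, 24 members (8.66%) were called against 13.7% of all genes, 5 higher and 19 lower (6.54% and 7.16% of all genes), with a median of -0.08. The 5 include Zfp101 and the 19 include Zfp583, which were chosen for their RAD21 values. With 1 library left out, 7 or 8 were called. From 12 to 24 h 48 members were called against 15.9% of all genes, 40 higher and 8 lower (7.67% and 8.26% of all genes), and leaving out 1 library left 21 to 29. The 40 higher include Zfp101, which was chosen for its RAD21 values. Of the 40, 36 were KRAB members, and the KRAB median from 12 to 24 h was 0.22 against 0.006 in the others. Of the 60 members called lower at 12 h, 33 were called higher from 12 to 24 h and 13 were called lower at 24 h. Their medians of -0.60 at 12 h and -0.20 at 24 h are a description, since they were picked on the 12 h libraries and share the untreated ones. Markers moved at 24 h against untreated cells too. Of the pluripotency markers 1 was higher and 3 lower, Eomes of trophoblast and Sox1 of the neural list were lower, and their part was not tested.

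Zfp97 rose again from 12 to 24 h by 0.81 (SE 0.08, adjusted p = 0.0011). Zfp799 read 312 and 553 at 24 h (1.18 from 12 h, adjusted p = 0.024, up to 0.12 with 1 library left out). Zfp647 was also higher than at 12 h (0.96, up to 0.18). Zfp459 (-0.62, up to 0.13), Zfp428 (-0.62, 0.055 without 1 of the 4 libraries), Zfp326 (-0.46, up to 0.070) and Zfp207 (-0.38, adjusted p = 0.00073) were lower than at 12 h. Zfp960 was lower at 24 h than untreated, at 884 and 801 against 1350 and 1259 (-0.63, adjusted p = 0.0055), and its copy Zfp97 shares most of its words. Zfp936 (-0.83) and Zfp640 (-1.16) were also lower, with an adjusted p of up to 0.096 and 0.12 when 1 library was left out. Zfp652 rose from 1731 and 1670 to 2142 and 2129 (0.33, adjusted p = 0.0073), and Zfp974 from 75.9 and 76.6 to 150 and 141 (0.92, adjusted p = 0.026, 0.089 to 0.11 without each library). Zfp512 was higher too (0.39, up to 0.18).

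Zfp101 was chosen for its rise at 24 h of RAD21 loss, and its libraries there read 500 and 252, far apart, after 76.5 and 62.5 at 12 h. In the libraries of the other 4 tables, treated and untreated, it read between 239 and 637, and in untreated RAD21 AID cells 84.9 and 66.4. The tables were normalised separately, so no fold between them is given. Outside RAD21 loss it was called in 1 comparison, the Chd4 knockdown (0.61, adjusted p = 0.032, up to 0.26 with 1 library left out). Zfp583 was called outside RAD21 loss only in the overexpression control with IAA, given above, and it had 0.12 with the Chd4 hairpin (adjusted p = 0.66).

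**Figure D4:**
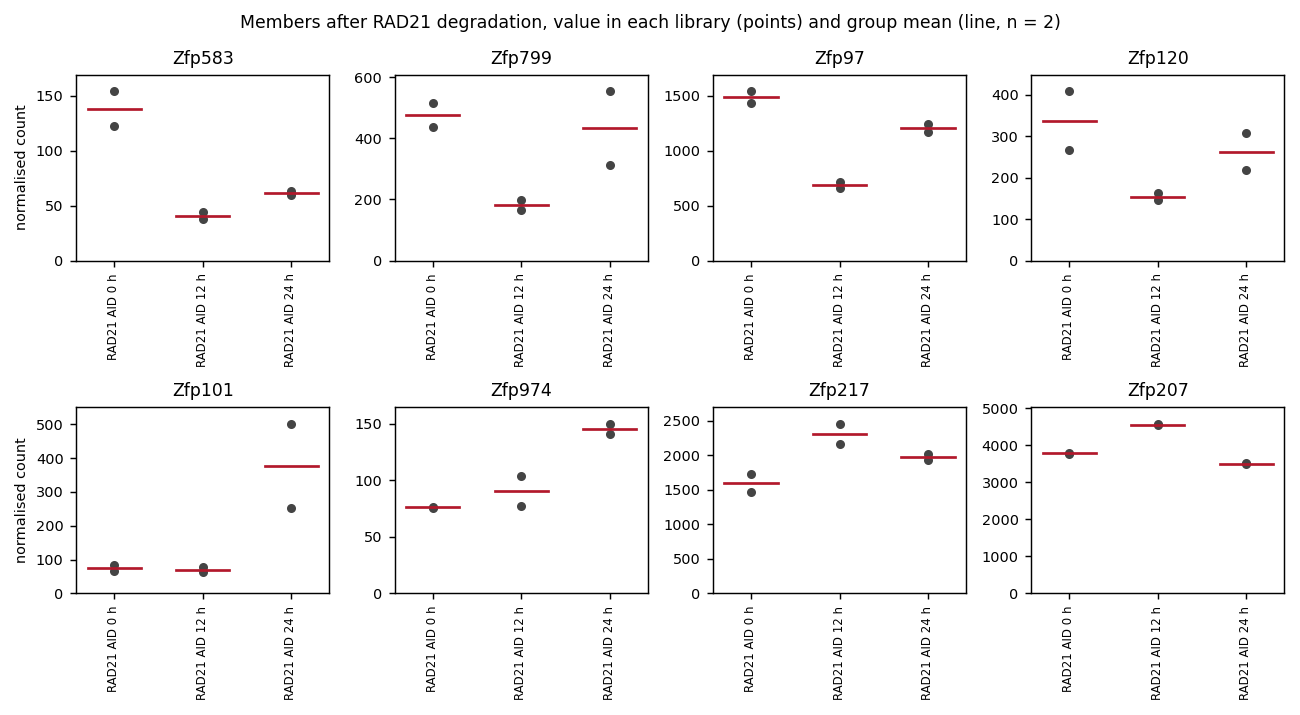
Normalised counts of 8 members in each RAD21 AID library (points), with the mean of the 2 libraries (line), on linear axes from 0. Zfp799, Zfp97 and Zfp120 are low at 12 h and higher at 24 h, and the 2 libraries of Zfp101 at 24 h are far apart.

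The run with the most members called lower at 12 h of RAD21 loss was on chromosome 4, between 145510759 and 147809788 (mm10), with 16 KRAB members from Zfp990 to Zfp984. This cluster is known for recently duplicated KRAB genes that act on endogenous retroviruses, and all 16 share over 10% of their words with other genes. At 12 h 14 of 16 were called lower (median -0.65) and none higher. The exceptions were Zfp986 (-0.59, adjusted p = 0.16) and Zfp989 (0.24, adjusted p = 0.78). From 12 to 24 h 13 were called higher (median 0.51), and at 24 h 3 were still called lower (median -0.15).

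RefSeq holds promoter windows for 10 of the 16 members. The longest run of letters that all 10 share is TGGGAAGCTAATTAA, 15 bases, found in 12 of the 32851 windows (0.0365%), of which the other two belong to Gm13212 and Rex2, and in no member outside the run. The share of 20-letter words that a window has in common with another window of the run was 10.3% at the lowest, 63.7% at the median and 80.4% at the highest. Of these windows 4 are printed to show how alike the starts of these genes are, with the common letters in capitals. They are chr4:145670447-145670746 for Zfp980, chr4:146097062-146097361 for Zfp987, chr4:147553027-147553326 for Zfp985 and chr4:146514670-146514969 for Zfp981, all on the plus strand of GRCm38.p6.
Zfp980: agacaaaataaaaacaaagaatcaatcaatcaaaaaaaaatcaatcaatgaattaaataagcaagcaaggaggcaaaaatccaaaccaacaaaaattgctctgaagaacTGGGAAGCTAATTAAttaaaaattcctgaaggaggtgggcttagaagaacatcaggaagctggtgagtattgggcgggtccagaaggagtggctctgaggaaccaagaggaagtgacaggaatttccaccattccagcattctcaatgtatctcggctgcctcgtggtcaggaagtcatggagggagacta
Zfp987: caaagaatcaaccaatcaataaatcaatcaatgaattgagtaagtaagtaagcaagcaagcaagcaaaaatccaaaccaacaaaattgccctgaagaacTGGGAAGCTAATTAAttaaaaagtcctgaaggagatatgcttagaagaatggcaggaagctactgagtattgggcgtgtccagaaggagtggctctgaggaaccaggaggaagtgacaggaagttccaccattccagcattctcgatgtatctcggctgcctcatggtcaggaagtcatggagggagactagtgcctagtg
Zfp985: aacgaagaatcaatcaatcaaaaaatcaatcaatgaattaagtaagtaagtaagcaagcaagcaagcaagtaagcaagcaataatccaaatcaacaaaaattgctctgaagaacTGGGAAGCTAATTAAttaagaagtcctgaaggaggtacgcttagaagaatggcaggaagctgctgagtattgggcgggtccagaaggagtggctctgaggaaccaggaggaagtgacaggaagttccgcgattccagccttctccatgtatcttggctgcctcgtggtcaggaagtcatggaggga
Zfp981: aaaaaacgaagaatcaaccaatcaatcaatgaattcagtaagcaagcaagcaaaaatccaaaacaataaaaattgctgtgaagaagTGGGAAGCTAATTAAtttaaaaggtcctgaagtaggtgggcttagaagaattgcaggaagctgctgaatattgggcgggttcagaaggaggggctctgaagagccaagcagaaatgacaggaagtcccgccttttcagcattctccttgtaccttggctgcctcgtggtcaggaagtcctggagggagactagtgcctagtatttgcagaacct

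The common letters end between 122 and 150 bases before the start. Beside these windows, Zfp980 read 3753 and 3730 untreated and 2372 and 2282 at 12 h of RAD21 loss (-0.69, adjusted p = 0.00029). Zfp985 read 1045 and 1149, then 662 and 649 (-0.74, adjusted p = 0.0052), and Zfp987 1105 and 1066, then 658 and 651 (-0.73, adjusted p = 0.002). Zfp981 changed least of the 4, from 1499 and 1568 to 1319 and 1127 (-0.33, adjusted p = 0.043). Zfp990, at the low-coordinate end of the run, read 3767 and 3818, then 2519 and 2434 (-0.61, adjusted p = 0.00071), and 3200 and 3047 at 24 h. Treated and untreated libraries did not overlap at 12 h for any of the 5. They were singled out after their values were seen, for their windows and levels.

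After CTCF loss and with the Chd4 hairpin the called members of the same run were higher. After CTCF loss 5 of the 16 were called higher at 12 h (median 0.32), 3 at 24 h (0.24) and 8 in the overexpression control (0.16), and in serum 3 (0.05), with none lower. Of all genes 9.39%, 11.7%, 12.8% and 7.73% were called higher in these comparisons, in the same order. With the Chd4 hairpin 13 of the 16 were called higher (0.59) and none lower, beside 33.5% of all genes called higher. All 16 share words with other genes, so their calls may not be independent. Zfp990 read 5196 and 4901 untreated and 7020 and 6518 at 12 h of CTCF loss (0.42, adjusted p = 0.018), and 7341 and 6968 with the control hairpin against 11929 and 10579 with the Chd4 hairpin (0.65, adjusted p = 0.00014). Over all members, this run included, 9 were both higher at 12 h of CTCF loss and lower at 12 h of RAD21 loss. That is 39.1% of the 23 and 15% of the 60, and 1 was lower in both. Of all 277 members 60 were lower at 12 h of RAD21 loss, beside 6.35% of all genes, and 14 of the 60 are in this run. Members outside the run were not counted apart. Zfp57 was not among the 9. These 2 comparisons share no library.

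Chd4 knockdown changed the family in both directions, as it did the other genes. With the hairpin 186 members (67.1%) were called against 67.4% of all genes, 97 higher and 89 lower (33.5% and 33.8% of all genes), and the median was 0.02. The share called was near that of all genes. Of the 186, 51 changed at least 2-fold, and the middle of the family lay between -0.50 and 0.44. KRAB members split into 65 higher and 51 lower and the others into 32 and 38. Markers of other states moved beside them. The 2-cell-like markers summed to 27.6 with the control hairpin and 713 with the Chd4 hairpin (3 of 3 tested higher). Primitive endoderm markers summed to 108 and 316, with Gata6 and Pdgfra higher and Gata4 and Sox17 lower. Pluripotency markers summed to 69432 and 52245 (4 of 6 lower, none higher). T of mesoderm (2.09), Eomes of trophoblast (0.88) and Nes of the neural list were called higher, and Sox1 of the neural list lower. The part of all these markers in the members' values was not tested.

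The 4 largest rises were in Zfp750, from 175 and 165 to 742 and 729 (2.11, SE 0.10, adjusted p = 7e-06), Zfp640, from 212 and 196 to 776 and 618 (1.76), Zfp709, from 85.3 and 90.2 to 293 and 279 (1.69), and Zfp28, from 154 and 252 to 659 and 592 (1.66). The largest falls were in Zfp90, from 228 and 248 to 38.1 and 36.1 (-2.65, SE 0.17, adjusted p = 2.6e-05), Zfp712, from 124 and 117 to 19.3 and 18.1 (-2.62), Zfp184, from 344 and 412 to 74.2 and 86.4 (-2.22), and Zfp667, from 381 and 377 to 85.7 and 85.5 (-2.13). None of these 8 calls was lost on leaving out a library. Of the 8, all but Zfp750 and Zfp640 are KRAB members, and 50.8% of the words of Zfp640 are shared with other genes.

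Calls within runs of neighbours went in both directions in the Chd4 knockdown, and the shares called in the runs below are to be read beside the 67.4% of all genes called, 33.5% higher and 33.8% lower. On chromosome 7 the 9 members from Zfp787 to Zfp772 had 6 lower and 1 higher (median -0.88), with Zfp667 (-2.13), Zfp773 (-2.06) and Zfp444 (-1.63) beside Zfp28 (1.66). Also on chromosome 7, the 9 members from Zfp788 to Zfp819 had 5 higher and 2 lower (median 0.67). On chromosome 13 the 14 members from Zfp640 to Zfp273 had 8 lower and 2 higher (median -0.43), Zfp712 among the lower. On chromosome 17 the 17 members from Zfp160 to Zfp13 had 9 higher and 3 lower (median 0.39). The chromosome 6 stretch that fell after CTCF loss had 5 higher and 1 lower (median 0.39), with Zfp398 at 297 and 279 against 472 and 509 (0.77, adjusted p = 0.00048).

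After 12 h of RAD21 loss no run had more members called higher than lower except the chromosome 6 stretch (1 higher, none lower, median 0.21). Beside the chromosome 4 run, the members from Zfp160 to Zfp13 on chromosome 17 had 5 lower (median -0.38), those from Zfp788 to Zfp819 on chromosome 7 had 4 lower (-0.47), those from Zfp871 to Zfp414 on chromosome 17 had 4 lower (-0.26), and none had any higher. In all, 27 members were both lower at 12 h of RAD21 loss and higher with the Chd4 hairpin, which is 45% of the 60 and 27.8% of the 97. Of all 277 members 97 were higher with the hairpin, beside 33.5% of all genes. The chromosome 4 run holds copies and had 14 of 16 lower after RAD21 loss and 13 higher with the hairpin. Members outside that run were not counted apart. Zfp990, Zfp980 and Zfp987 of the run are among the 27. Another 14 of the 60 were lower with the hairpin, beside 33.8% of all genes.

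**Figure D5:**
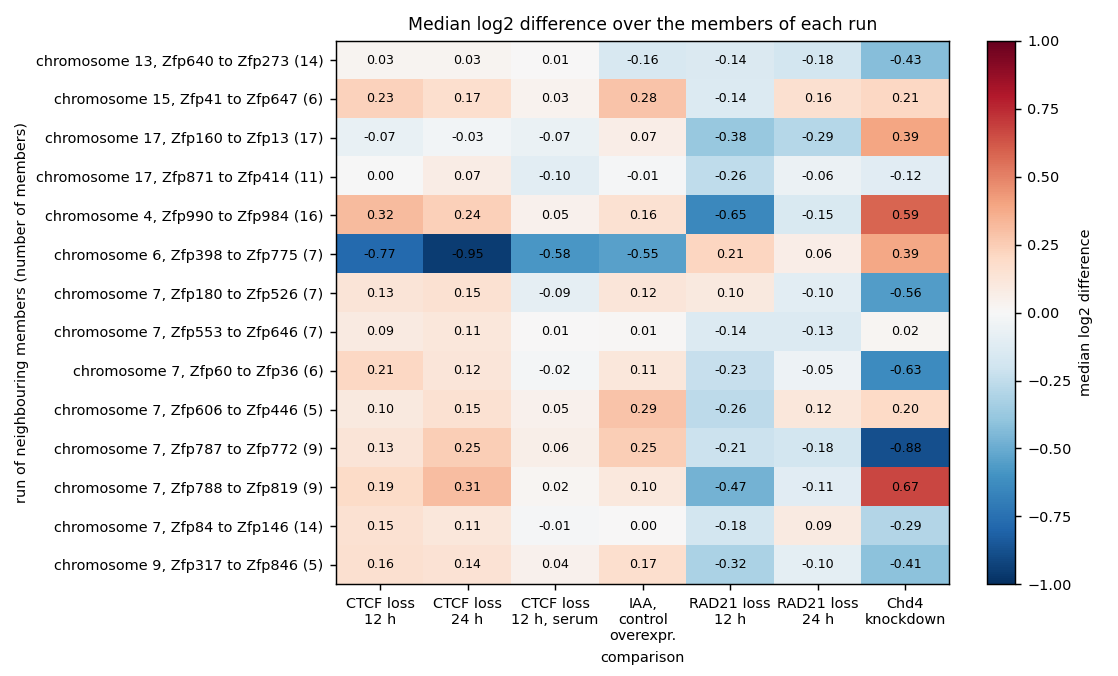
Median log2 difference over the members of each of the 14 runs of neighbouring members (rows, number of members in brackets) in 7 comparisons (columns), from blue for lower to red for higher. The chromosome 6 run is lowest after CTCF loss (-0.77 at 12 h and -0.95 at 24 h), and the chromosome 4 run is lowest after RAD21 loss at 12 h (-0.65).

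Members with known tasks were followed as lists. Of 7 members that silence imprinted regions or retroelements (Zfp57, Zfp445, Zfp809, Zfp568, Zfp708, Zfp932 and Zfp638), 2 were called higher at 12 h of CTCF loss, Zfp57 and Zfp568, and none lower (list median 0.11). Of all genes 9.39% were higher and 8.4% lower. Zfp568, which represses a placental Igf2 transcript, read 3908 and 4246 untreated and 4943 and 5138 at 12 h (0.31, adjusted p = 0.022, up to 0.12 with 1 library left out). In the overexpression control it went from 5295 and 5327 to 6207 and 6216 (0.23, adjusted p = 0.0015). At 12 h of RAD21 loss Zfp445 and Zfp809 (-0.35, a call lost without each library in turn) were lower and none higher (list median -0.06). Of all genes 6.35% were lower and 6.66% higher. With the Chd4 hairpin Zfp638, which works with the HUSH complex on unintegrated viral DNA, rose from 4736 and 4486 to 9484 and 9427 (1.04, adjusted p = 5.9e-06). Zfp568 rose by 0.81 and Zfp932, which acts on endogenous retroviruses, was lower there (-0.55).

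Of 7 regulators of stem cell state 6 were among the genes tested after RAD21 loss, so 1 of the 7 is not a member. Zfp296 was called higher after CTCF loss at 12 h (0.38, a call lost without each library in turn). At 24 h it was higher too (0.55, adjusted p = 0.0084), a call that 1 library left out could end. At 12 h of RAD21 loss Zfp296 was called lower, a call lost without each library in turn, and Zfp207 and Zfp217 were higher. Of all genes 6.35% were lower there and 6.66% higher. In serum 3 of the 7 were lower, beside 9.25% of all genes. Zfp281, which restrains Nanog, went from 4582 and 4663 to 3839 and 3922 (-0.25, adjusted p = 0.0017). Zfp207 had -0.19 (adjusted p = 0.0042) and Zfp462 -0.41, a call that some single library could end. With the Chd4 hairpin Zfp281 rose by 0.48 (adjusted p = 0.00039), and Zfp143 (-0.53), Zfp217 (-0.27) and Zfp462 (-0.78, up to 0.13) were lower.

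Among 10 members that act on RNA, ribosomes or ubiquitin, 7 were called with the Chd4 hairpin, 3 higher and 4 lower, a share of 70% beside 67.4% of all genes. Zfp36, tristetraprolin, which drives decay of AU-rich mRNAs, fell from 459 and 453 to 150 and 161 (-1.55, adjusted p = 3.5e-05), and Zfp91, a ubiquitin ligase, by 0.68 on the log2 scale. Zfp593, a ribosome biogenesis factor, was lower in the overexpression control with IAA, from 446 and 428 to 298 and 306 (-0.53, adjusted p = 0.0047). In CTCF AID cells it had -0.53 at 12 h and -0.51 at 24 h, calls that ended without any 1 of the libraries (adjusted p up to 0.21 and 0.20). Zfp91 was lower at 12 h of RAD21 loss (-0.37, adjusted p = 0.0046). Of 6 promoter and cofactor proteins, 4 were called with the Chd4 hairpin, all higher, beside the same 67.4% of all genes. Zfp410, known as the activator of the Chd4 gene, went from 836 and 823 to 1031 and 1063 (0.34, adjusted p = 0.0031). Zfp64 was lower in the overexpression control with IAA (-0.44, adjusted p = 0.0012) and with wild-type CTCF in the libraries titled with IAA (-0.37, adjusted p = 0.0044).

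The partners of KRAB proteins are given beside the shares of all genes. Of 25 genes of the TRIM28 pathway, 8 were higher and 2 lower at 12 h of CTCF loss, where 17.8% of all genes were called. At 12 h of RAD21 loss 7 were higher and 2 lower (13.0% of all genes), and at 24 h 1 was higher and 6 lower (13.7%). With the Chd4 hairpin 5 were higher and 12 lower, a share close to the 67.4% of all genes. The 12 include Chd4 itself, the target of the hairpin. Trim28 had 0.17 at 12 h of CTCF loss (adjusted p = 0.045), 0.24 and -0.23 at 12 and 24 h of RAD21 loss (adjusted p = 0.002 and 0.0015) and -0.67 with the Chd4 hairpin (adjusted p = 1.3e-05). Setdb1, the histone methyltransferase, rose by 0.38 and 0.42 at 12 and 24 h of CTCF loss and fell by 0.25 and 0.24 on the log2 scale at 12 and 24 h of RAD21 loss. Chd3, the paralogue of Chd4, rose by 1.82 with the Chd4 hairpin (adjusted p = 5.5e-06).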

How the data were processed

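RNA-seq was analysed in 32 libraries, 16 groups of 2, in 5 tables. The deposited values are normalised counts (a signal in no fixed unit) that the authors made from their reads; the submitters' processing notes name Trim Galore, Bowtie2, STAR, RSEM and DESeq2 and the build mm10, with no roles, and no strand setting is given in the sources used here. Each table was normalised separately, so comparisons stay within tables. The members and lists were chosen with earlier results of these data known. limma 3.58.1 in R 4.3.3 was run on log2(value + 1) with a trended prior, all groups of a table in 1 fit, genes with a mean of at least 10, and Benjamini-Hochberg adjustment over all genes tested. Read depth cannot be recovered from these values. The CTCF AID table ends in 1 incomplete line, which was dropped; 113 to 165 genes of the other tables sort after it. Of the 2 rows of Zfp91 the higher was used. KRAB boxes were found with HMMER 3.4 and copies by shared 50-base words, from GENCODE transcripts; 227 members matched RefSeq promoter windows and 50 did not. Named are, per comparison, the 4 largest called rises and falls whose libraries do not overlap (2 and 2 between overexpression lines), Zfp101 and Zfp583, members called alike in all 4 CTCF comparisons, and called members of the role lists; others were picked after their values were seen. The fit was tested on simulated data. Alternatives were a pseudocount of 5, no filter, trimmed-mean scaling, a replicate block, only the groups compared, and leaving out each library.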

Additional observations from a re-analysis of the deposited data

Results flagged for a closer look

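The response of all 277 members to IAA was compared between the overexpression control and each of the other lines, and 6 differences passed in limma. With wild-type CTCF the response differed by 1.70 for Zfp398, by 0.59 for Zfp81 and by -0.28 for Zfp57. With mutated CTCF it differed by 1.84 for Zfp398, by -0.43 for Zfp57 and by -0.23 for Zfp990. The 2 results of Zfp398 are positive because the fall seen in the control was smaller in both other lines. The 2 results of Zfp57 and that of Zfp990 are negative because the rise seen in the control was smaller. Zfp81 rose with wild-type CTCF and was not called with IAA in the other lines, and its difference passed in no fit with 1 library left out. All 6 rest on libraries whose title and treatment label disagree, and genes stood on both sides of that conflict.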

How the results depend on the processing

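With 1 library left out, the number called went from 33 to between 10 and 16 at 12 h of CTCF loss, from 43 to between 18 and 43 at 24 h, from 65 to between 26 and 31 at 12 h of RAD21 loss, from 24 to 7 or 8 at 24 h, from 48 to between 21 and 29 from 12 to 24 h, and from 33 to between 8 and 29 in serum. In the overexpression lines it went from 62 to between 32 and 40 in the control, from 51 to between 24 and 34 with wild-type CTCF, from 28 to between 9 and 12 with mutated CTCF, from 0 to at most 2 for wild-type CTCF against the control, from 10 to between 5 and 7 for mutated CTCF against the control, and from 15 to between 7 and 9 for mutated against wild-type CTCF. Fitted on the groups compared alone, the control with IAA gave 39, wild-type CTCF 31, mutated CTCF against the control 3 and against wild type 4. A pseudocount of 5, no filter, trimmed-mean scaling and the replicate block kept every count within 1.5 times. The labels pair no replicate numbers, and same-numbered libraries did not deviate together in 3 or more pairs (r from -0.0982 to 0.143); with the replicate block 38 members were called at 12 h of CTCF loss and 49 at 12 h of RAD21 loss. Of 110 alternative medians over the members 94 moved by less than the spread between libraries, 16 by more and 0 changed sign. Of 166 called results of single members, 95 lost the call under at least 1 alternative, and of 5582 alternatives of single members 0 reversed. Read depth is not recoverable from the normalised values, and 2 libraries per group limit the precision.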
